A study of Danio rerio with 3 samples.

Results

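The classical target genes of the glucocorticoid receptor were examined here as a set of 10 zebrafish genes: fkbp5, tsc22d3, klf9, sgk1, ddit4, glula, pck2, cebpb, cebpd and mt2. Probes were taken as theirs where the gene name in the array files was one of these symbols or an older name of it. This gave 32 probes of the 43603 on the array, and 10 genes of 27216. The older names were zgc:64114 for ddit4, si:dkey-201c13.3 for klf9, zgc:64189 for 5 of the 8 tsc22d3 probes, and mt for 1 of the 5 mt2 probes.

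Cortisol reaches the nucleus by binding the glucocorticoid receptor, a transcription factor that waits in the cytoplasm in a complex with chaperones. The receptor with its hormone binds DNA and raises transcription of many genes. Several of the genes chosen here, though not all, are among those best known to respond in mammalian cells. In zebrafish, cortisol is the main glucocorticoid, and the egg carries receptor messenger laid down by the mother.

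The embryos were Danio rerio labelled as wild type, bred from pet shop fish whose strain is not given. Eggs of the cortisol groups were kept in water with 13.8 µM (5 mg/L) cortisol from 0 to 2 hours post fertilisation (hpf), and those of the vehicle groups in water with 2 ml ethanol per 1 L over the same hours. Embryos were then raised at 28.5 °C and collected at 5, 12 or 24 hpf, so each stage has a cortisol group and a vehicle group. Whole embryo RNA (200 ng) was labelled with Cy5 (red) for cortisol and Cy3 (green) for vehicle on 2-colour oligonucleotide arrays, with no dye swap, so dye and treatment cannot be told apart. The labels state 4 replicates at 5 hpf, 3 at 12 hpf and 1 at 24 hpf, but 1 set of values stands for each stage. Hence there was no replicate check, no test was made, and every difference below is given as a size alone. Whole embryos hold many cell types, and fewer cells of a type and less RNA per cell cannot be told apart.

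A probe counted as measured when both its colours were above a limit set from the negative control spots (their mean and 2 SD). The log2 ratio is cortisol over vehicle, so a value above 0 means a higher signal in cortisol embryos. The red channel was dim at the later stages: the 95th percentile of the net signal (signal minus local background) at 5 hpf was 7318 in cortisol and 3710 in vehicle embryos. At 12 hpf it was 330 in cortisol and 4350 in vehicle embryos, and at 24 hpf 290 in cortisol and 1978 in vehicle embryos. At 12 and 24 hpf the ratio also drifted with the place of a spot in the file. The median ratio in the first twentieth of the file was -0.43 at 12 hpf and -0.63 at 24 hpf, and in the last it was 0.21 at both. Each member is therefore given by 3 ratios: from the scanner signals, from the same signals with the drift subtracted, and from the authors' deposited log ratio, put on the log2 scale. A dim spike-in control, with a net cortisol signal of 62.5 at 12 hpf, had a mean ratio of 1.23 from the scanner signals and 2.59 as deposited, so ratios of dim spots lay closer to 0 in the scanner signals. Between different probes of a gene the ratio had a pooled SD over genes of 0.205 at 5 hpf, 0.334 at 12 hpf and 0.332 at 24 hpf. In vehicle embryos 11 of 11 early stage markers on the array were lower at 24 than at 5 hpf, and 12 of 12 late stage markers were higher.

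**Figure D1:**
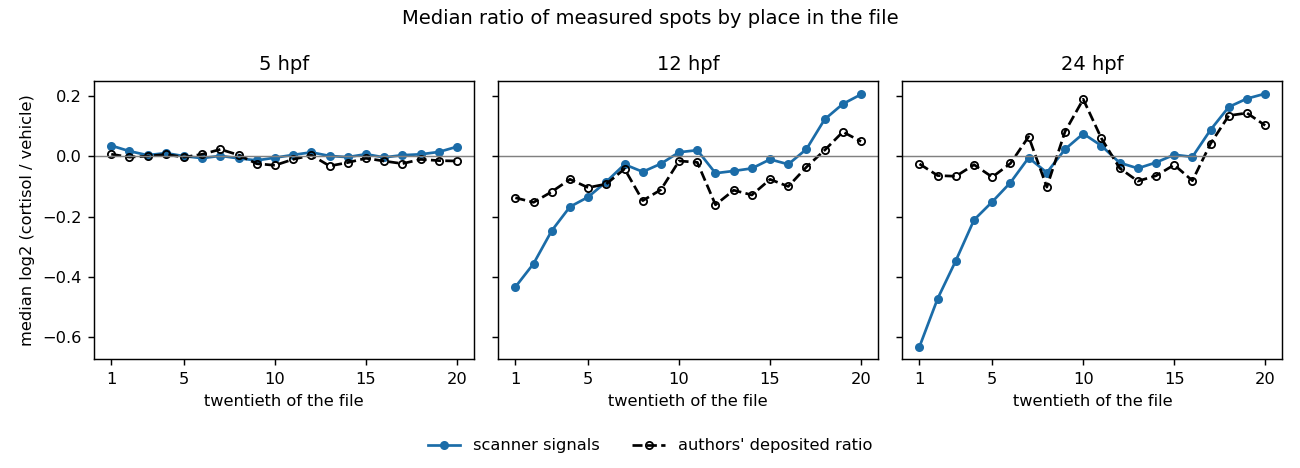
Median log2 ratio (cortisol over vehicle) of measured spots in each twentieth of the file, from the scanner signals (filled, blue) and from the deposited ratio (open, dashed). The line is flat at 5 hpf, and at 12 and 24 hpf the scanner ratio climbs from -0.43 and -0.63 in the first twentieth to 0.21 in the last.

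All 10 genes were measured at 5 hpf, from 25 of the 32 probes. At 12 hpf 9 genes were measured from 19 probes, klf9 dropping out. At 24 hpf 7 genes were measured from 15 probes, since fkbp5, klf9 and ddit4 were not above the negative controls in cortisol embryos. Of the other probes, 8 at 12 hpf and 9 at 24 hpf were above the controls in vehicle embryos only. No fold is given for these 1-colour probes.

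At 5 hpf, 2 of the 10 genes were at least 1.5-fold lower in cortisol embryos, glula and ddit4, where 0.932% of all 19309 measured genes were. Both were also over 2-fold lower, a size reached by 0.14% of all genes. None was 1.5-fold higher, against 2.94% of all genes (0.57% at least 2-fold). The same pair was called after the drift was subtracted, where 0.974% of all genes were lower and 2.87% higher. In the authors' deposited ratio pck2 joined them, making 3 lower and 0 higher, with 7.12% of all genes lower and 9.27% higher. The median over the 10 genes was -0.02, against 0.01 over all genes, and 5 of the 10 were below 0. For fkbp5, klf9 and cebpd no probe exceeded the array's median signal in both colours at 5 hpf.

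At 12 hpf, 0 of 9 measured genes were 1.5-fold lower and 0 were higher in cortisol embryos, against 3.24% and 1.58% of all 12766 genes. At least 2-fold, these shares of all genes were 0.321% lower and 0.58% higher. The members' counts were again 0 and 0 once the drift was subtracted, against 0.799% lower and 1.75% higher. In the authors' deposited ratio 1 gene, fkbp5, was higher and 0 were lower, with 6.06% of all genes higher and 11.8% lower. The median over the 9 genes was -0.17, against -0.03 over all genes. It was -0.06 against 0.01 with the drift subtracted, and -0.20 against -0.09 in the authors' deposited ratio.

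At 24 hpf, 0 of 7 measured genes were 1.5-fold lower and 0 were higher in cortisol embryos, against 4.43% and 1.26% of all 12319 genes (0.787% and 0.325% at least 2-fold). Their median was -0.46, against -0.02 over all genes, and 6 of the 7 were below 0. The 3 genes not measured are missing from that median, and the part of the dim red channel in it was not tested. After the drift was subtracted 1 gene, pck2, was lower and 0 were higher, against 1.23% lower and 1.64% higher over all genes, and the median was -0.44. In the authors' deposited ratio 2 genes, mt2 and pck2, were lower and 0 were higher, against 9.28% lower and 10.1% higher, and the median was -0.46.

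The sign of a gene's ratio was the same in all 3 ratios for 9 of 10 genes at 5 hpf, with 5 lower and 4 higher in cortisol embryos. This held for 7 of 9 genes at 12 hpf, with 5 lower and 2 higher. It held for 6 of 7 genes at 24 hpf, all of them lower: tsc22d3, sgk1, glula, pck2, cebpb and mt2. The share of all genes that kept a sign in the 3 ratios was not computed. At 24 hpf 50.2% of all measured genes had a scanner ratio below -0.02. The 3 ratios come from the same spots, so a shared sign is no independent support.

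**Figure D2:**
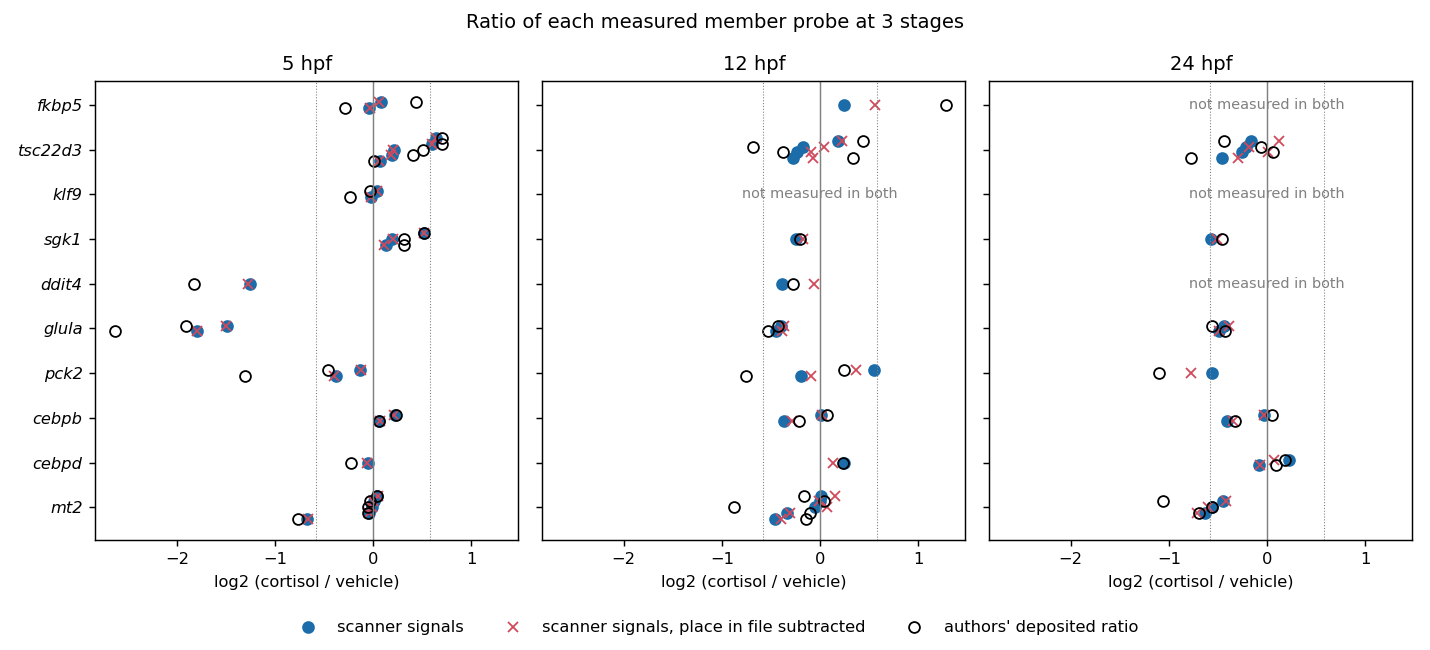
Log2 ratio (cortisol over vehicle) of each measured probe of the 10 genes at 5, 12 and 24 hpf, from the scanner signals (filled), with the drift along the file subtracted (crosses), and as deposited (open circles); dotted lines mark 1.5-fold. The glula probes and the ddit4 probe stand far to the left at 5 hpf, and at 24 hpf most points lie left of 0.

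**Figure D3:**
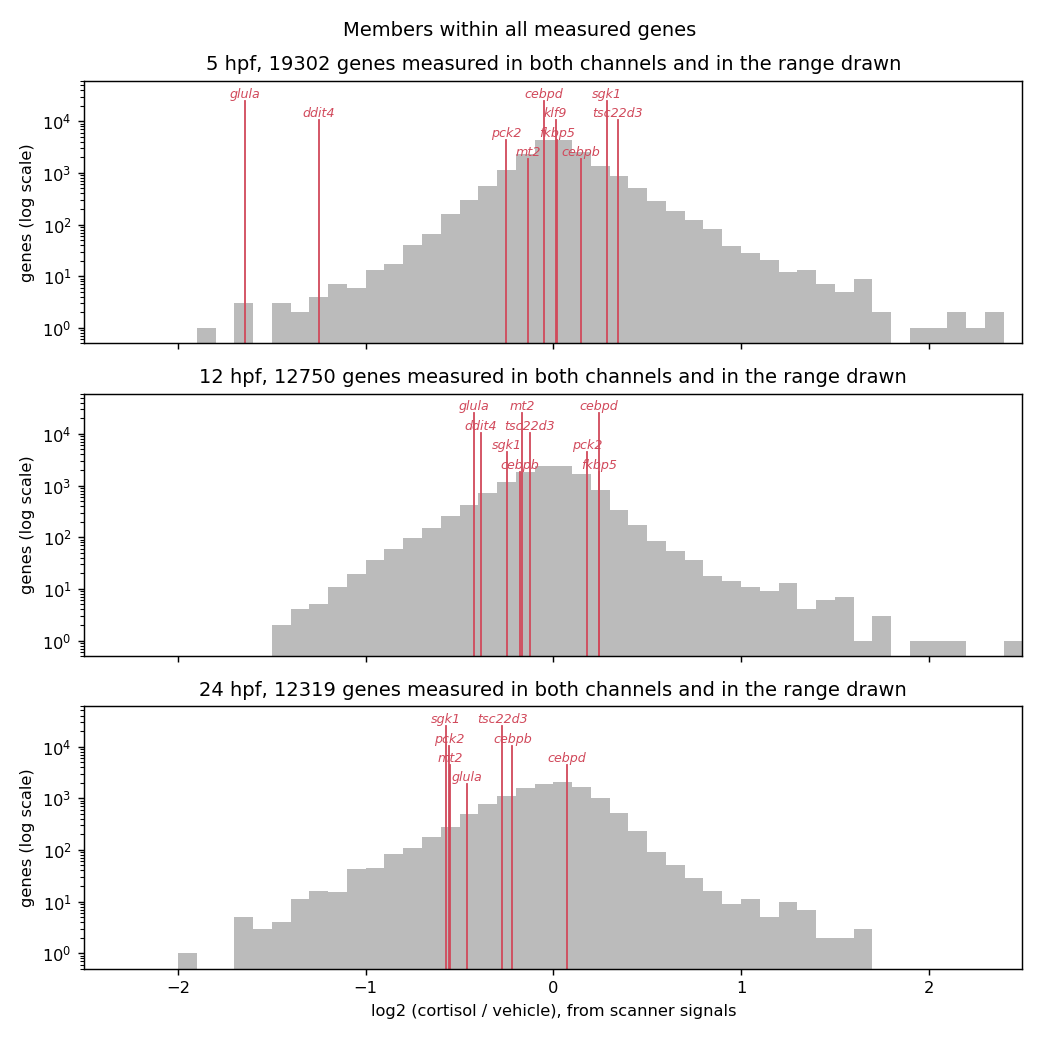
Number of measured genes (log axis) by log2 ratio from the scanner signals at each stage, with the genes of the set as red lines whose height has no meaning. At 5 hpf glula and ddit4 lie far in the lower tail and the other 8 between -0.25 and 0.34, and at 24 hpf 6 of 7 lie below 0.

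Among the metabolic enzymes, glula differed most. It encodes glutamine synthetase, which joins ammonia to glutamate and is induced by glucocorticoids in mammalian muscle. At 5 hpf the brighter of its 2 probes had a net signal of 6087 in cortisol embryos and 10556 in vehicle embryos. The other probe had 1672 in cortisol and 2519 in vehicle embryos. Both probes thus had the lower signal in cortisol embryos, on an array whose 95th percentile was the higher in cortisol. Their log2 ratios were -1.80 and -1.49, and the gene's ratio of -1.64 is 3.13-fold lower. It ranked 3 from the lowest of 19309 genes. Subtracting the drift left -1.64, and the authors' deposited ratio was -2.27, with rank 15 from the lowest.

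At 12 hpf the brighter glula probe had a net signal of 668.5 in cortisol and 11223 in vehicle embryos, and the other 39.8 in cortisol and 805 in vehicle embryos. Red was dim throughout at this stage, and the normalized log2 ratios of these probes were -0.39 and -0.45. At 24 hpf the brighter probe had 309 in cortisol and 2854 in vehicle embryos, and the other 7.5 in cortisol and 140 in vehicle embryos. The ratios were -0.49 and -0.43, so glula was again lower in both probes. The gene's ratios of -0.42 at 12 hpf and -0.46 at 24 hpf had 7.57% and 7.75% of measured genes below them. They were -0.37 and -0.44 with the drift subtracted, and in the authors' deposited ratio -0.48 and -0.49. Thus glula was lower at every stage in all 3 ratios, and in these beyond 1.5-fold at 5 hpf only. With plain background subtraction, however, it was -1.07 at 24 hpf, past 2-fold. Whether the ratio at 5 hpf differs from those at 12 and 24 hpf was not tested.

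The pair of relatives of glula on the array did not share its size at 5 hpf. glulb, another glutamine synthetase gene, had a ratio of -0.10 over 5 probes, and glulc had -0.07 over 3 probes. At 12 and 24 hpf glulb had -0.31 and -0.12. Single probes of glulb spread widely in the scanner ratio, the lowest being -1.11 at 12 hpf and -1.06 at 24 hpf. With the drift subtracted the lowest were -0.59 and -0.31, and in the authors' deposited ratio -0.54 and -0.24.

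pck2 encodes the mitochondrial form of phosphoenolpyruvate carboxykinase, an enzyme on the way from lactate or amino acids to glucose. Its brightest probe had a net signal of 84.7 in cortisol and 76.4 in vehicle embryos at 5 hpf. At 12 hpf it had 801 in cortisol and 6697 in vehicle embryos, and at 24 hpf 90.5 in cortisol and 930.5 in vehicle embryos. The log2 ratio of that probe was -0.38, 0.55 and -0.55 at 5, 12 and 24 hpf. It was therefore lower in cortisol embryos at the outer stages and higher at 12 hpf. A dimmer probe had -0.13 at 5 hpf and -0.19 at 12 hpf, so the probes disagreed in sign at 12 hpf.

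Over its measured probes pck2 had a ratio of -0.25 at 5 hpf, 0.18 at 12 hpf and -0.55 at 24 hpf. These were -0.26, 0.14 and -0.77 once the drift was subtracted. The authors' deposited ratio gave -0.88, -0.26 and -1.10, so the sign of this average at 12 hpf depended on which ratio was read. Each probe kept its sign there from the scanner signals, with the drift subtracted and as deposited. The brightest had 0.55, 0.36 and 0.25 in that order, and the dimmer -0.19, -0.09 and -0.76. At 24 hpf, where 1 probe measured the gene, pck2 was 1.47-fold lower from the scanner signals and 2.14-fold lower in the authors' deposited ratio. The cytosolic counterpart pck1 had a ratio of 0.02 at 5 hpf, and later no probe of it was above the controls in cortisol embryos.

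ddit4 encodes a stress-induced inhibitor of the growth kinase mTOR, and is a quickly responding glucocorticoid target in mammals. Its single probe had a net signal of 1197 in cortisol and 1554 in vehicle embryos at 5 hpf. This gave a log2 ratio of -1.25, 2.38-fold lower in cortisol embryos and rank 12 from the lowest of all measured genes. It was -1.27 with the drift subtracted, and in the authors' deposited ratio -1.83. At 12 hpf the net signal was -2.1 in cortisol and 86.5 in vehicle embryos, so the cortisol spot lay under its local background although its signal passed the negative controls. The ratio there was -0.39, or -0.06 with the drift subtracted and -0.28 in the authors' deposited ratio. At 24 hpf the net signals were 7.5 in cortisol and 26.5 in vehicle embryos, and the cortisol signal was not above the controls. With 1 probe, no second probe stands behind the value at 5 hpf.

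tsc22d3, also called GILZ, is a leucine zipper protein that mediates part of the anti-inflammatory action of glucocorticoids. At 5 hpf 5 of its 8 probes were measured, and all 5 were higher in cortisol embryos, from 0.07 to 0.64. The strongest had a net signal of 599 in cortisol and 195 in vehicle embryos, and the next, at 0.60, had 380.5 in cortisol and 124 in vehicle embryos. The gene's ratio was 0.34, or 1.27-fold, with 90.8% of genes below it. It was 0.34 with the drift subtracted and 0.47 in the authors' deposited ratio. Probes listed as tsc22d3 averaged 0.48 (3 probes), and those listed as zgc:64189 averaged 0.14 (2 probes). The older name points to tsc22d3 in the gene table, but its accession is not in that table, so the link is less sure.

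At the later stages the sign for tsc22d3 was not kept. The strongest probe at 5 hpf had a net signal of 12.9 in cortisol and 263 in vehicle embryos at 12 hpf, with a ratio of -0.24. At 24 hpf it had 14.5 in cortisol and 210 in vehicle embryos, with a ratio of -0.46. Over 4 measured probes the gene had -0.13 at 12 hpf and -0.27 at 24 hpf. Subtracting the drift gave 0.03 and -0.08, and the authors' deposited ratio was -0.07 and -0.30. In that deposited ratio of the authors the names went apart: at 12 hpf probes listed as tsc22d3 averaged -0.53 and those listed as zgc:64189 averaged 0.39, with 2 probes each. At 24 hpf the averages were -0.60 for tsc22d3, past 1.5-fold, and 0.00 for zgc:64189. At 24 hpf the fitted drift at these 4 probes lay between -0.29 and -0.03.

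sgk1 encodes a serine/threonine kinase that acts on ion channels and carriers and is a classical fast target of corticosteroids. At 5 hpf its 3 probes were all higher in cortisol embryos, at 0.13, 0.20 and 0.52. The brightest had a net signal of 1006 in cortisol and 364.5 in vehicle embryos. The gene's ratio was 0.28 (1.22-fold), 0.28 with the drift subtracted and 0.38 in the authors' deposited ratio. At 12 hpf only the brightest probe was measured, with 111 in cortisol and 1637 in vehicle embryos and a ratio of -0.25. At 24 hpf it had 99.0 in cortisol and 1022 in vehicle embryos and a ratio of -0.57 (1.49-fold lower), with 4.76% of genes below it. The values at 24 hpf were -0.51 with the drift subtracted and -0.46 in the authors' deposited ratio. sgk1 was thus higher in cortisol embryos at 5 hpf and lower at 24 hpf in all 3 ratios. At 24 hpf this rests on a single probe, where different probes of a gene had a pooled SD of 0.332.

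fkbp5 encodes a co-chaperone of the receptor complex that lowers the receptor's affinity for hormone, and it is widely used as a readout of receptor activity in mammals. Its probes were dim at every stage. At 5 hpf the brighter had a net signal of 34.4 in cortisol and 17.7 in vehicle embryos, the other 7.0 in cortisol and 7.7 in vehicle embryos, and the ratios were 0.08 and -0.04. The gene's ratio of 0.02 was in the middle of all genes. At 12 hpf 1 probe was measured, with a net signal of 8.5 in cortisol and 24.9 in vehicle embryos. Its ratio was 0.24, or 0.56 with the drift subtracted, and 1.29 (2.44-fold) in the authors' deposited ratio. The size of this ratio thus changed with the way it was computed.

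klf9 is a Krüppel-like transcription factor gene that is induced by glucocorticoids, in zebrafish as well as in mammals. Its 2 probes had net signals of 37.0 and 21.1 in cortisol embryos at 5 hpf, against 20.6 and 14.6 in vehicle embryos. The ratios were 0.04 and -0.02, and the gene's ratio of 0.01 was -0.13 in the authors' deposited ratio. At 12 hpf neither probe was above the controls in cortisol embryos, and at 24 hpf neither was in either colour. A difference in klf9 at 12 or 24 hpf was not detectable at this brightness.

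cebpb and cebpd encode leucine zipper transcription factors of inflammation, liver and fat. At 5 hpf the 2 probes of cebpb had net signals of 20910 and 23760 in cortisol embryos, against 9627 and 9763 in vehicle embryos. Their ratios were 0.07 and 0.22. At 12 hpf they had 169 and 263 in cortisol embryos, against 2703 and 3109 in vehicle embryos, with ratios of -0.37 and 0.01. At 24 hpf they had 83.5 and 124 in cortisol embryos, against 759 and 790 in vehicle embryos, with ratios of -0.41 and -0.03. The probes differed from each other by more than the gene's own ratio at every stage. That ratio was -0.18 at 12 hpf and -0.22 at 24 hpf. At 5 hpf, with probes at 0.0661 and 0.2249 and a gene's ratio of 0.1455, this was by a narrow margin. At 5 hpf the gene stood at 0.15, close to the other ratios of 0.14 with the drift subtracted and 0.15 as deposited by the authors.

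cebpd was measured by 1 of its 4 probes at 5 and 12 hpf and by 2 at 24 hpf. The brightest probe had a net signal of 22.3 in cortisol and 16.5 in vehicle embryos at 5 hpf. Its net signal was 87.5 in cortisol and 837 in vehicle embryos at 12 hpf, and 81.0 in cortisol and 402 in vehicle embryos at 24 hpf. Its ratios were -0.05, 0.24 and 0.23. The gene's ratio at 24 hpf was 0.07, since a dimmer probe stood at -0.08, and with the drift subtracted it was -0.00. At 12 hpf it was 0.13 with the drift subtracted and 0.23 in the authors' deposited ratio. cebpd was the one measured gene of the set with a ratio above 0 at 24 hpf, although it was -0.34 with plain background subtraction and -0.79 with median centring, under which all genes had a median of -1.21.

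mt2 encodes a metallothionein, a small protein that binds zinc and copper and is induced by metals and glucocorticoids. At 5 hpf the brightest of its 5 probes had a net signal of 4392 in cortisol and 2270 in vehicle embryos and a ratio of -0.01. Another bright probe had 2311 in cortisol and 1935 in vehicle embryos and a ratio of -0.67. The other 3 lay between -0.04 and 0.04, so a single probe carried the gene's ratio of -0.13, which was 0.22 when the array was centred on its median in place of loess. At 12 hpf the same pair of bright probes had 145 and 92.0 in cortisol embryos, against 1722 and 1486 in vehicle embryos, with ratios of 0.00 and -0.34. The gene's ratio was -0.17 over 5 probes, from -0.46 to 0.01.

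At 24 hpf the 3 measured mt2 probes were all lower in cortisol embryos. The bright pair had 251 and 189 in cortisol embryos, against 2592 and 1858 in vehicle embryos, and ratios of -0.63 and -0.56. The third had 22.0 in cortisol and 270 in vehicle embryos and a ratio of -0.45. The gene's ratio was -0.55 (1.46-fold lower) with 5.26% of genes below it. It was -0.58 with the drift subtracted and -0.77 (1.70-fold lower) in the authors' deposited ratio.

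Levels of a probe were also followed across the stages in each treatment, after scaling between arrays, with each stage on its own array, so stage and array cannot be told apart. The brighter glula probe had normalized log2 levels of 10.53, 11.74 and 10.89 in cortisol embryos at 5, 12 and 24 hpf, against 12.33, 12.13 and 11.38 in vehicle embryos. The level of this probe at 12 minus that at 5 hpf was 1.21 in cortisol embryos and -0.19 in vehicle embryos. Its net cortisol signal was 6087 at 5 hpf and 668.5 at 12 hpf, on arrays whose 95th percentiles in cortisol were 7318 and 330. The rise of 1.21 is thus one of normalized levels only. For the other glula probe the level at 12 minus that at 5 hpf was -0.50 in cortisol embryos and -1.54 in vehicle embryos. The probes thus had opposite signs in cortisol embryos, while both were lower at 12 than at 5 hpf in vehicle embryos. ddit4 had 8.49 and 6.47 in cortisol embryos at 5 and 12 hpf, against 9.74 and 6.85 in vehicle embryos. The level was thus lower at 12 than at 5 hpf in both treatments. pck2 had 6.40, 11.94 and 9.32 in cortisol embryos, against 6.78, 11.38 and 9.88 in vehicle embryos, with a peak at 12 hpf in both.

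In vehicle embryos, the level at 24 minus that at 5 hpf, averaged over a gene's probes measured in vehicle at both, was -3.28 log2 units for ddit4, -2.73 for cebpb and -1.81 for glula. It was 2.67 for cebpd, 1.75 for pck2, 1.04 for sgk1 and 0.70 for tsc22d3. For mt2 and fkbp5 it was 0.11 and 0.03. Scaling to the 75th percentile in place of quantiles kept the signs of all these gene averages. The averages then ran from -3.68 for ddit4 to 3.36 for cebpd, with fkbp5 at 0.63 and mt2 at 0.002. The stage differences of ddit4, cebpb and cebpd were thus larger than any member's gene ratio between treatments in the 3 ratios. For cebpd this rests on 1 of 4 probes, with a net vehicle signal of 16.5 at 5 hpf. The others were not above the controls there. With median centring it did not hold for cebpb and cebpd: glula was -3.00 at 12 hpf, where all genes had a median of -1.70.

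**Figure D4:**
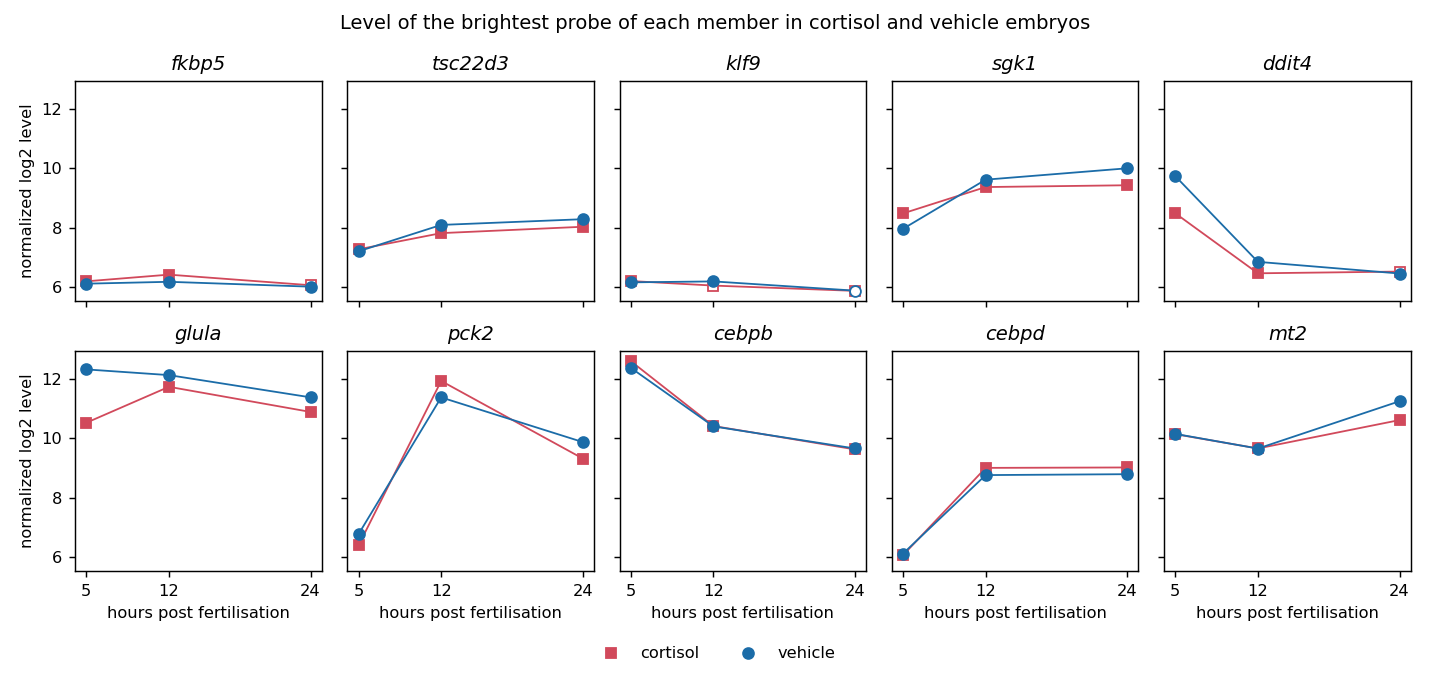
Normalized log2 level of 1 probe per gene, the one with the highest vehicle level, at 5, 12 and 24 hpf in cortisol (red squares) and vehicle (blue circles) embryos; open symbols were not above the negative controls, and the tsc22d3 panel shows a probe listed as zgc:64189. The lines of glula and ddit4 stand apart at 5 hpf, and pck2 peaks at 12 hpf in both treatments.

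For each member measured at all stages, the genes with the most similar course were sought over the 6 channel levels (3 stages, 2 treatments), each gene centred on its own mean, among 7297 genes. Likeness was the Euclidean distance, with small values meaning alike. The nearest to glula was mapkapk3 at 0.84, farther than the first neighbour of the other 6 members. The nearest to pck2 were tbx6 at 0.34, msgn1 at 0.79 and myf5 at 0.88. The nearest to tsc22d3 was ppm1ab at 0.14, to cebpb cxcr4a at 0.15, to cebpd rpl22 at 0.18, to sgk1 phc2b at 0.18 and to mt2 gstt1b at 0.27.

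The receptor itself, nr3c1, had ratios of 0.20, 0.08 and -0.04 at 5, 12 and 24 hpf. In the authors' deposited ratio these were 0.27, -0.27 and -0.36. Its ratio was within 1.5-fold at each stage by either measure.

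Paralogues of the set were read for comparison, 12 of the 14 listed being on the array. None of the 12 measured at 5 hpf, 9 at 12 hpf and 9 at 24 hpf passed 1.5-fold in the scanner ratio, and the medians were 0.03, 0.14 and -0.12. With the drift subtracted the medians were 0.02, 0.08 and -0.01, and as deposited -0.04, -0.18 and -0.04. The sign of the median at 12 hpf thus depended on the ratio. In the authors' deposited ratio klf13, a relative of klf9, was higher in cortisol embryos at 5 hpf (0.93) and 12 hpf (0.75). Its scanner ratios there were 0.09 and 0.39. By the deposited ratio cebpa, a relative of cebpb, was lower at 5 hpf (-0.84) and 24 hpf (-0.60). So was the kinase gene sgk3 at 24 hpf (-0.94). The scanner ratios were -0.18 and -0.36 for cebpa, and -0.16 for sgk3. In the deposited ratio 9.27%, 6.06% and 10.1% of all genes were 1.5-fold higher at 5, 12 and 24 hpf. The shares 1.5-fold lower were 7.12%, 11.8% and 9.28%.

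A further list of 34 genes known to respond to glucocorticoids had 29 on the array. Of these 25, 23 and 27 were measured at 5, 12 and 24 hpf, with scanner medians of 0.07, -0.07 and -0.01. With the drift subtracted the medians were 0.06, 0.04 and -0.002, and as deposited 0.11, -0.05 and -0.06. In the scanner ratio at 5 hpf the furthest from 0 were the collagenase gene mmp13a at 0.58, the annexin gene anxa1a at -0.57, igfbp1a at 0.48 and foxo3b at -0.48. These were 0.92, -0.60, 1.41 and -0.78 in the authors' deposited ratio. At 12 hpf the scanner ratio put furthest the phosphatase gene dusp1 at -0.43, fbxo32 at -0.38, and the clock genes cry2 and per1a, both at 0.31. As deposited by the authors they were -0.21, -1.32, 0.51 and 0.57. At 24 hpf the clock gene per1b had -0.84 and bcl6aa -0.65, past 1.5-fold, but -0.38 and -0.16 with the drift subtracted and -0.06 and -0.75 in the authors' deposited ratio. The others named there were trim63a at 0.50 and foxo3a at -0.47, or 0.79 and -0.05 as deposited by the authors.

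The count of this list past 1.5-fold depended on the ratio. At 5 hpf it was 0 of 25 in either direction in the scanner ratio, where 2.94% of all genes were higher and 0.932% lower. In the authors' deposited ratio 4 were higher (foxo1a, igfbp1a, igfbp1b and mmp13a) and 3 lower (anxa1a, foxo3b and per1b), where 9.27% of all genes were higher and 7.12% lower. The furthest of them was foxo1a, at 2.02 in the authors' deposited ratio and 0.39 in the scanner ratio, named after its values were seen. At 12 hpf the counts were 0 in the scanner ratio, where 1.58% of all genes were higher and 3.24% lower. In the authors' deposited ratio 1 was higher and 4 lower, where 6.06% of all genes were higher and 11.8% lower. At 24 hpf the counts were 0 higher and 2 lower in the scanner ratio, against 1.26% and 4.43% of all genes. As deposited by the authors 1 was higher and 4 lower, against 10.1% and 9.28% of all genes.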

How the data were processed

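The members, the gene lists and the comparisons were chosen with earlier results of these data known. The deposited scanner files hold the median pixel intensity and local background intensity of each spot and channel, per the file headers, from Agilent Feature Extraction per the submitters' processing notes; its version, and how replicate arrays were combined, are not given in the sources used here. A log10 ratio of Cy5 over Cy3, already normalized by the authors, and a processed intensity per channel stand in a second set of deposited files, per the file headers. That log10 ratio was rescaled to log2, and an exact 0, found in 12.2%, 26.7% and 37.2% of probes at 5, 12 and 24 hpf, was taken as no estimate.

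From the scanner signals, background was corrected with normexp (offset 50) in limma 3.58.1 under R 4.3.3, leaving out spots whose local background exceeded 2 times the array median (12, 9 and 0 spots). Loess normalization was then applied inside each array, giving 1417 control spots no weight. Spots of a probe were averaged first, and then the measured probes of a gene. Channel levels were scaled between arrays with Aquantile. The drift along the file was estimated by lowess (span 0.05) over measured spots; this alternative was added after the drift had been seen. Detection used 153 negative control spots. Spike-in controls, 10 kinds with 32 spots each, had a median SD of the scanner ratio of 0.035, 0.33 and 0.33 at 5, 12 and 24 hpf. With the drift subtracted it was 0.030, 0.22 and 0.17, and in the deposited ratio 0.020, 0.094 and 0.17. Over genes, the scanner and deposited ratios had a correlation of 0.78, 0.46 and 0.53. Gene names came from RefSeq's gene table (assembly GRCz12tu): 25258 probes matched by accession, 2766 by symbol and 1682 by a synonym, while 13897 matched nothing and stayed as the files name them.

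The genes named are the 10 members, listed paralogues, the receptor, and per stage the 4 other responsive genes with the largest ratio. For levels, the 3 nearest genes per member were sought. With 1 set of values per stage there was no test, and precision is limited by how few arrays there are. Scripts were tested on simulated data. Alternatives were the deposited ratio, the ratio of processed signals, other background and normalization settings, stricter detection limits, the median of probes, the drift, and probes with a current accession. Promoter sequences were not used here. Other computations used Python 3.11.15.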

Additional observations from a re-analysis of the deposited data

Results flagged for a closer look

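The log2 ratio of sgk1 had opposite signs at the outer stages: 0.28 at 5 hpf, where all 3 probes were above 0, and -0.57 at 24 hpf, where 1 probe was measured. The difference of 24 minus 5 hpf was -0.85, which sets an average of 3 probes against 1 probe. For the 1 probe measured at both stages it was -1.09. For sgk1 the signs were opposite in all 3 ratios, but each stage is 1 set of values and the difference was not tested. tsc22d3 and cebpb were likewise above 0 at 5 hpf and below 0 at 24 hpf in all 3 ratios. From the scanner signals tsc22d3 had 0.34 and -0.27, and cebpb 0.15 and -0.22. In contrast, glula, pck2 and mt2 were below 0 at both stages, and cebpd had -0.05 and 0.07. All 10 kinds of spike-in control also had a lower mean ratio at 24 than at 5 hpf, in both the scanner and the deposited ratio. From the scanner signals 1 of them had 0.65 at 5 hpf and -0.98 at 24 hpf, and another -0.51 and -1.07. A fall between these stages is thus not particular to sgk1. The red channel was far dimmer at 24 than at 5 hpf, and its part in these results was not tested.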

How the results depend on the processing

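In the scanner ratio only glula and ddit4 at 5 hpf were past 1.5-fold, and neither changed sign under the alternatives run. Their size did change: with median centring glula was -1.14 and ddit4 -0.81, which is under 2-fold. With plain background subtraction 3 members were 1.5-fold lower at 5 hpf, the added one being pck2 at -0.70. Some smaller ratios did change sign. At 12 hpf pck2, 0.18 as reported, was -0.26 with the deposited ratio and -2.19 with median centring. At 24 hpf cebpd, 0.07 as reported, was -0.34 with plain background subtraction. No paired analysis was possible because each stage is 1 set of values, and for the same reason no replicate was left out and no slide block was run. The count of members at least 1.5-fold higher in cortisol embryos at 12 hpf, 0 as reported, was 1 with the deposited ratio, 1 with the processed signals and 1 with plain background subtraction, where fkbp5 ranged from 1.29 to 1.81. The count at least 1.5-fold lower at 24 hpf, 0 as reported, was 2 with the deposited ratio, 2 with the processed signals, 3 with plain subtraction (glula at -1.07, mt2 at -0.66 and tsc22d3 at -0.62) and 1 with the drift subtracted. The share of all genes past 1.5-fold was not computed for the processed signals, plain subtraction or median centring. With median centring the median of all genes was itself past 1.5-fold lower at 12 and 24 hpf. Median centring in place of loess shifted the median of all genes to 0.16, -1.70 and -1.21 at 5, 12 and 24 hpf. Under it 1 member, cebpb, was 1.5-fold higher at 5 hpf, 8 were lower at 12 hpf with a median of -2.07, and 7 were lower at 24 hpf with a median of -2.06. Relative to all genes those medians were -0.38 and -0.85, and mt2 at 5 hpf turned to 0.22. Of 26 ratios of single members, 20 moved by more than the spread between probes with median centring, 6 with the deposited ratio, 5 with the processed signals and 1 when normexp was fitted on every spot, as did 6 of 25 with plain subtraction and 1 of 22 (sgk1 at 5 hpf, 0.52) where both colours had to exceed the median signal. A limit of 3 SD over the controls, the median of probes, the drift and probes with a current accession moved none of them by that much. At 12 hpf, however, subtracting the drift took ddit4 from -0.39 to -0.06 and fkbp5 from 0.24 to 0.565, just under the spread of 0.334. With the drift subtracted that spread was 0.280, and both moves exceed it. Signal over background limits fkbp5, klf9 and ddit4 after 5 hpf, and fkbp5, klf9 and cebpd were also dim at 5 hpf.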
